A study of Mus musculus with 2 samples.

Results

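The 10 genes described here carry out and control sodium chloride uptake in the distal nephron, the stretch of kidney tubule after the loop's thin limbs. They were taken by symbol from a read count table of 45777 genes and comprise the cotransporter genes Slc12a1 and Slc12a3, the channel subunit genes Scnn1a, Scnn1b and Scnn1g, the kinase genes Wnk1, Wnk4 and Sgk1, the ubiquitin ligase adaptor gene Klhl3, and Hsd11b2, a steroid-inactivating enzyme gene. The counts come from RNA sequencing of whole mouse kidneys, where 1 library represents control mice and the other represents mice whose Inmt, an amine methyltransferase gene, was conditionally knocked out (CKO) in the proximal tubules. Both groups ate standard chow and were untreated. Strain, age, the driver of the deletion and the number of animals in each library are not given in the sources used here. Because each group is a single library, nothing below could be tested against animal-to-animal spread, and each difference is between these 2 libraries rather than between genotypes.

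As background, the thick ascending limb takes up sodium, potassium and chloride together through NKCC2, the protein of Slc12a1 and the target of loop diuretics. The distal convoluted tubule then takes up sodium and chloride through NCC, the protein of Slc12a3 and the target of thiazides. In the connecting tubule and collecting duct, principal cells take up sodium through ENaC, a channel built from the alpha, beta and gamma subunits that Scnn1a, Scnn1b and Scnn1g encode. WNK kinases sense chloride and act through the kinases SPAK and OSR1, which phosphorylate NKCC2 and NCC, and KLHL3 marks WNK kinases for breakdown. Aldosterone raises ENaC activity through the mineralocorticoid receptor and SGK1, and HSD11B2 keeps glucocorticoids from occupying that receptor. All of this control by phosphorylation and breakdown lies in the protein and is not seen in read counts.

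Counted reads totalled 33618076 in the control library and 38136616 in the CKO library. Levels are CPM, read counts on a common library size after scaling by TMM (a trimmed mean of ratios), with exact Poisson 95% intervals, and ratios are CKO over control with exact Clopper-Pearson 95% intervals, which cover counting error only. Inmt, the targeted gene, had 17678 reads in the control against 5283 in the CKO library, a level 4.73-fold lower (4.59 to 4.88). Markers show the tissue to be kidney in both libraries, with none (0) of 12 proximal tubule and none (0) of 13 thick ascending limb markers without reads. The libraries also differed in markers of other cell types and in tubular injury genes, which are not assigned to a segment here. Summed proximal tubule markers went from 32778 to 17926 CPM, summed macrophage markers from 75.8 to 358 CPM and summed tubular injury genes from 477 to 5394 CPM. Of the injury sum, Spp1, its most abundant gene, held 342 CPM in the control and 4196 CPM in the CKO library. In bulk tissue, fewer cells of a type and less RNA per cell cannot be told apart, and the part these shifts play in the values below was not tested.

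All 10 genes reached 1 CPM, the minimum for calling a gene expressed, as did 15129 genes in all. The number that was 2-fold or more higher was 0 of 10, against 10.3% of expressed genes, and the number 2-fold or more lower was also 0, against 1.66%. These 2-fold counts use the log2 ratio of CPM + 0.5, as do all log2 ratios below. At a limit of 1.5-fold, 1 gene, Scnn1b, was higher, against 19.3% of expressed genes, and none (0) was lower, against 6.85%. The counting interval of the ratio lay above 1 for 7 of the 10 (Slc12a1, Slc12a3, Scnn1a, Scnn1b, Scnn1g, Sgk1 and Hsd11b2), against 36.8% of expressed genes. It lay below 1 for 2, Wnk1 and Klhl3, against 34.7%. Over genes reaching 10 CPM in at least 1 library, which all 10 members did, those shares were 31.0% and 45.9%. The median log2 ratio of the 10 genes was 0.31, against 0.01 for all expressed genes, whose interquartile range was -0.25 to 0.42. Scnn1b and Klhl3 lay outside that range, Scnn1b above it and Klhl3 below it.

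**Figure D1:**
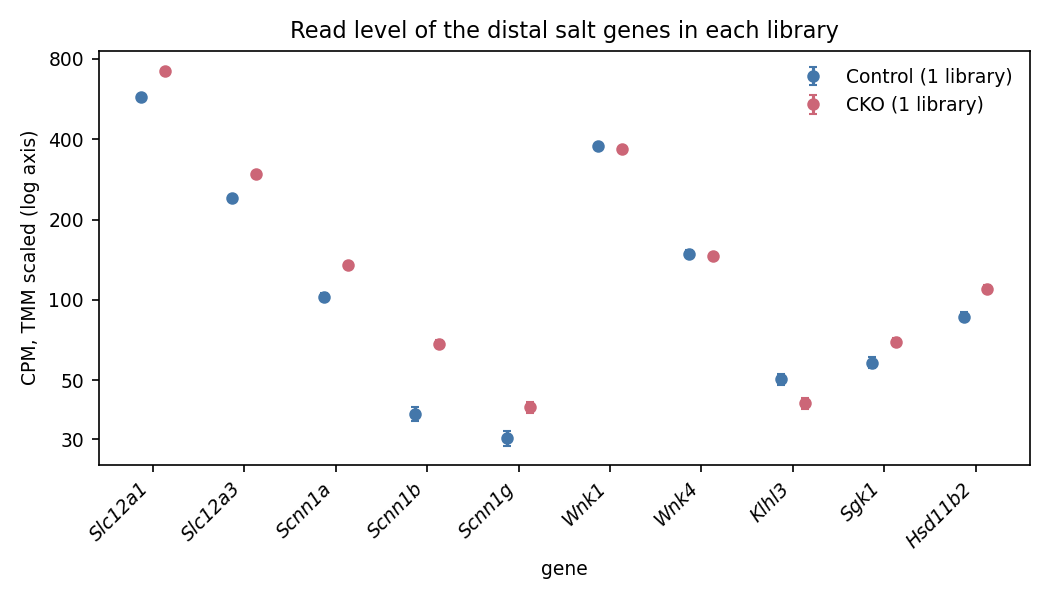
Level of each gene in the control and the CKO library, in TMM-scaled CPM on a log axis; points are single libraries and bars exact Poisson 95% intervals. The carriers, channel subunits, Sgk1 and Hsd11b2 were higher in the CKO library, Wnk1 and Wnk4 lay almost level, and Klhl3 was lower.

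Slc12a1, on chromosome 2 at 125152510 to 125230002 (GRCm38), was the most abundant of the 10. It had 17376 reads in the control against 30720 in the CKO library, or 577 CPM (569 to 586) against 721 CPM (713 to 730). The ratio was 1.25 (1.23 to 1.27). Slc12a3, on chromosome 8 at 94329109 to 94366222, had 7258 reads against 12608, or 241 CPM (236 to 247) against 296 CPM (291 to 301). Its ratio of 1.23 (1.19 to 1.26) had an interval that overlapped that of Slc12a1. Both ratio intervals lay above 1, as did those of 36.8% of expressed genes. The balance between these cotransporter genes can be read without any scaling, because both counts come from the same library. There were 2.39 reads of Slc12a1 per read of Slc12a3 in the control against 2.44 in the CKO library, so that this balance changed by a factor of 1.02 (approximate 95% counting interval 0.983 to 1.05).

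Thick ascending limb markers lay on both sides of Slc12a1. Of 13 markers, none (0) was at least 2-fold higher or lower, the median log2 ratio was 0.39 and the value for Slc12a1 was 0.32, with 7 markers above it and 6 below. Umod, the uromodulin gene and the most abundant marker, was 1.57-fold higher (1.55 to 1.58), and the tight junction gene Cldn19 1.72-fold higher (1.58 to 1.87). Relative to Umod, Slc12a1 reads were lower in the CKO library, with 0.416 reads per Umod read in the control against 0.332 in the CKO library, a factor of 0.798 (0.781 to 0.816). Kcnj1, a potassium channel gene among these markers, is named here after its values were seen. Relative to Kcnj1, Slc12a1 reads were higher in the CKO library, a factor of 1.27 (1.21 to 1.33). Of 4 macula densa markers, 2 were at least 2-fold higher, with Ptgs2, a prostaglandin synthase gene, on 6 against 43 reads and Pappa2, a protease gene, on 53 against 176. Both are low in level, and with TPM or FPKM + 0.5 none (0) of the 4 was at least 2-fold higher.

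Slc12a3 was higher, while 7 of 11 listed markers of its segment had log2 ratios below 0 on the TMM scale and 4 had values above 0. Of 11 distal convoluted tubule markers, 1 passed 2-fold on the higher side and 0 on the lower side, and their median log2 ratio was -0.23, against 0.30 for Slc12a3, which was above 9 of the 11. The difference of 0.52 between Slc12a3 and that median stays nearly the same under any scaling of whole libraries. Egf, the epidermal growth factor gene, which the thick ascending limb also expresses, was 1.62-fold lower (1.59 to 1.64) on 31333 against 27409 reads, and the calcium-binding protein gene Calb1 was 1.60-fold lower (1.52 to 1.67). Trpv5, an apical calcium channel gene of the late convoluted and connecting tubule, went the other way, from 234 to 1492 reads, a ratio of 4.51 (3.93 to 5.20). The marker Trpm6, named here after its values were seen, was also higher, at 1.36 (1.15 to 1.62) on 207 against 399 reads. Per read of Calb1 there were 1.94 reads of Slc12a3 in the control against 3.80 in the CKO library, a factor of 1.96 (1.86 to 2.07). Per read of Egf the factor was 1.99 (1.92 to 2.05), and per read of Trpv5 it was 0.272 (0.237 to 0.314). Factors this far from 1 follow from the choice of Calb1, Egf and Trpv5, markers named for their large absolute log2 ratios. With total counts Egf and Calb1 stayed below 0, at -0.37 and -0.36, while the median of the list turned to 0.09. The number of the 11 markers above 0 was then 6, and it was 7 with TPM, so most were lower only on some scales.

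**Figure D2:**
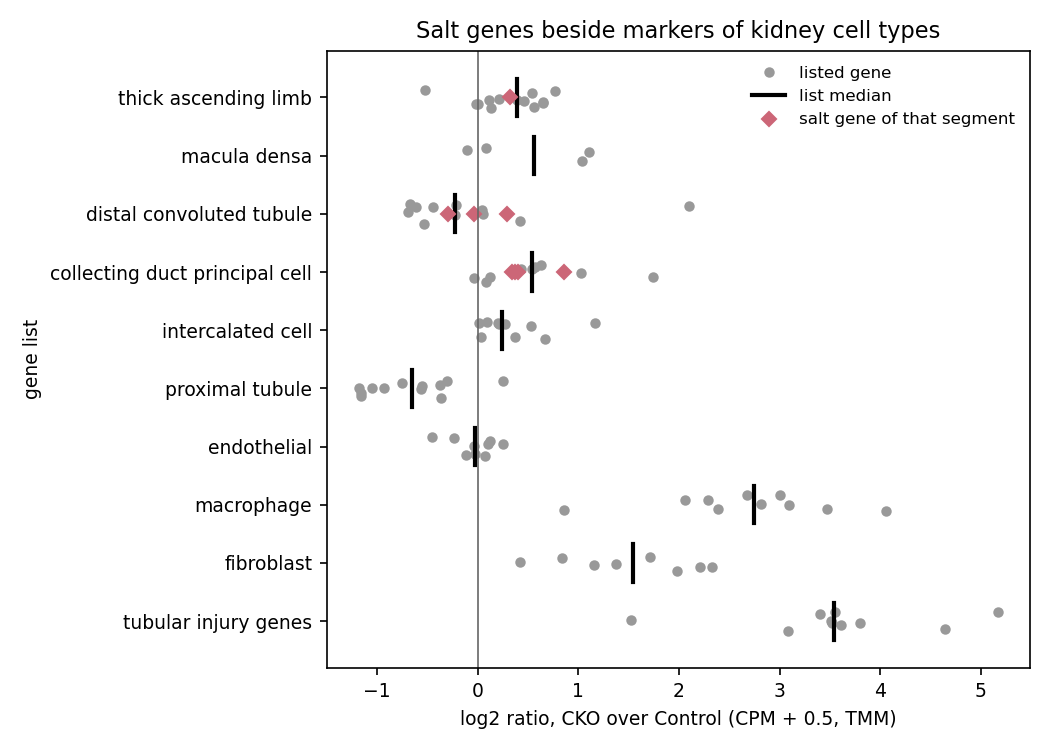
Log2 ratio, CKO over control (CPM + 0.5, TMM), of expressed genes in 10 cell type and injury lists (grey points), with list medians (black bars) and the salt genes of the same segment (red diamonds). The distal convoluted tubule diamonds are, from left to right, Klhl3, Wnk4 and Slc12a3; those of principal cells lie between 0.35 for Hsd11b2 and 0.86 for Scnn1b.

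The ENaC subunits were all higher in the CKO library, and Scnn1b was higher by more than the other 2. Scnn1a, on chromosome 6 at 125314271 to 125344943, had 3077 reads against 5762, or 102 CPM (98.6 to 106) against 135 CPM (132 to 139), a ratio of 1.32 (1.27 to 1.38). Scnn1g, on chromosome 7 at 121734420 to 121768482, had 913 reads against 1682, or 30.3 CPM (28.4 to 32.4) against 39.5 CPM (37.6 to 41.4), a ratio of 1.30 (1.20 to 1.41). Scnn1b, on chromosome 7 at 121865038 to 121918728, had 1125 reads against 2906. That is 37.4 CPM (35.2 to 39.6) against 68.2 CPM (65.8 to 70.8), a ratio of 1.83 (1.70 to 1.96) whose log2 value of 0.86 lay at the 87.4 percentile of expressed genes.

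Inside each library the beta subunit gained on the other subunits. There were 0.366 reads of Scnn1b per read of Scnn1a in the control against 0.504 in the CKO library, a factor of 1.38 (1.27 to 1.5). Against Scnn1g the factor was 1.40 (1.26 to 1.56), while Scnn1g per Scnn1a differed by 0.984 (0.898 to 1.08), an interval that holds 1. On the authors' length-scaled TPM values, Scnn1b made up 26.0% of the summed subunit level in the control against 32.8% in the CKO library. Scnn1a made up 54.6% and 49.8%, and Scnn1g 19.4% and 17.4%. These factors do not depend on how the libraries are scaled. Scnn1b lies over part of Cog7, a Golgi complex gene on the opposite strand, but no annotated exon bases are shared, and Cog7 had a log2 ratio of -0.23.

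Scnn1b and Scnn1g are neighbours on the same strand, 96.6 kb apart, and their ratios differed, so the bases before each start are shown for comparison. The sequences are the 250 bases before the start that the RefSeq promoter table lists for each gene, 5′ to 3′ on the plus strand, from RefSeq (GRCm38.p6), at chr7:121734229-121734478 for Scnn1g and chr7:121864788-121865037 for Scnn1b. The listed start of Scnn1b opens its gene span, while that of Scnn1g lies 59 bases inside the span given above, so that the last 59 bases printed for Scnn1g belong to the span.
Scnn1g: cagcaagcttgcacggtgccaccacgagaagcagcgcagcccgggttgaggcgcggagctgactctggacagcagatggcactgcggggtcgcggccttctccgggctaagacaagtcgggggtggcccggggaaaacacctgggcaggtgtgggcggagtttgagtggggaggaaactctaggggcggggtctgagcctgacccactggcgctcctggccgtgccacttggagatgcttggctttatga
Scnn1b: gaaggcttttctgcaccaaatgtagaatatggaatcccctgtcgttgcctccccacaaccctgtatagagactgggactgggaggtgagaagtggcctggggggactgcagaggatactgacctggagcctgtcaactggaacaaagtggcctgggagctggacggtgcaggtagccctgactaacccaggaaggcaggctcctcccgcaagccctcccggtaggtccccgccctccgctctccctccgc
The start windows of both genes, which are these bases and the first bases of the transcript, were searched on both strands for 5 short motifs. The half-site of corticosteroid receptors, written TGTTCT, was held by 19.0% of 32851 start windows of the same length. The palindromic corticosteroid element is that half-site after its reverse complement, with 3 bases between them, so that each match also holds the half-site. The motif of the stress-responsive factor AP-1, written TGANTCA, was held by 7.81% of these windows, and that of the epithelial grainyhead-like factors, written AACCGGTT, by 0.146%. The TATA box, a common core promoter motif that is written TATAAA, was held by 13.6%. None of the 5 was found in either window, so no base is in capitals. The Scnn1g window was 64.7% G and C with 18 CG dinucleotides, and the Scnn1b window 61.7% with 10.

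Other genes of principal cells were higher too. Of 9 principal cell markers, 2 passed 2-fold on the higher side and 0 on the lower side, with a median log2 ratio of 0.54. Scnn1b lay above 7 of the 9, while Scnn1a, Scnn1g and Hsd11b2 each lay above 3. The water channel gene Aqp2 went from 1710 to 4952 reads, a ratio of 2.05 (1.94 to 2.16), and Npnt, a matrix protein gene and the marker with the most reads, 1.35-fold higher (1.30 to 1.40). The transcription factor gene Elf5 had 10 against 97 reads. Per read of Aqp2, Scnn1a reads differed by a factor of 0.647 (0.603 to 0.694), Hsd11b2 reads by 0.622 (0.578 to 0.669) and Scnn1b reads by 0.892 (0.817 to 0.974). Factors below 1 follow from the choice of Aqp2, a marker named for its large ratio. The marker Aqp3, named here after its values were seen, had a ratio of 1.09 (1.03 to 1.14), below those of Scnn1a and Hsd11b2. Of 10 intercalated cell markers, which belong to the other cell type of the collecting duct, 1 was at least 2-fold higher and none (0) lower by that much, with a median of 0.25.

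The kinase and adaptor genes of the WNK arm were not higher on the TMM scale. Wnk1, on chromosome 6 at 119923969 to 120038695, had 11388 reads against 15646, or 378 CPM (371 to 385) against 367 CPM (362 to 373). Its ratio was 0.972 (0.948 to 0.995). Wnk4, on chromosome 11 at 101260537 to 101277409, had 4488 reads against 6209, or 149 CPM (145 to 153) against 146 CPM (142 to 149), and its ratio of 0.978 (0.941 to 1.02) had an interval that holds 1. Klhl3, on chromosome 13 at 58000226 to 58123477, had 1515 reads against 1746, or 50.3 CPM (47.8 to 52.9) against 41.0 CPM (39.1 to 43.0). Klhl3 was 1.23-fold lower (1.14 to 1.32), at the 21.9 percentile of expressed genes. With total counts in place of TMM all 3 turned positive, to log2 ratios of 0.28 for Wnk1, 0.29 for Wnk4 and 0.02 for Klhl3, beside a median of 0.32 over all expressed genes. The total-count ratio of Klhl3, 1.02 (0.948 to 1.09), had an interval that holds 1.

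The counts of Wnk1 join the full-length kinase and the short kidney-specific form, which starts inside the gene and lacks most of the kinase domain. The table gives 22 transcripts for Wnk1 and 1 count, so these forms cannot be told apart here. Of the exon bases of Wnk4, 7.38% are shared with an antisense gene model, Gm11615, on the opposite strand, and how the counting used the strand is not given in the sources used here.

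Ratios within a library, which need no scaling, show Slc12a3 gaining on Wnk4 and Klhl3. Wnk4 per Wnk1 differed by a factor of 1.01 (0.962 to 1.05), an interval that holds 1. Slc12a3 per Wnk4 went from 1.62 to 2.03 reads, a factor of 1.26 (1.20 to 1.32), and Slc12a3 per Klhl3 from 4.79 to 7.22, a factor of 1.51 (1.40 to 1.62). Klhl3 per Wnk4 went from 0.338 to 0.281, a factor of 0.833 (0.770 to 0.901).

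**Figure D3:**
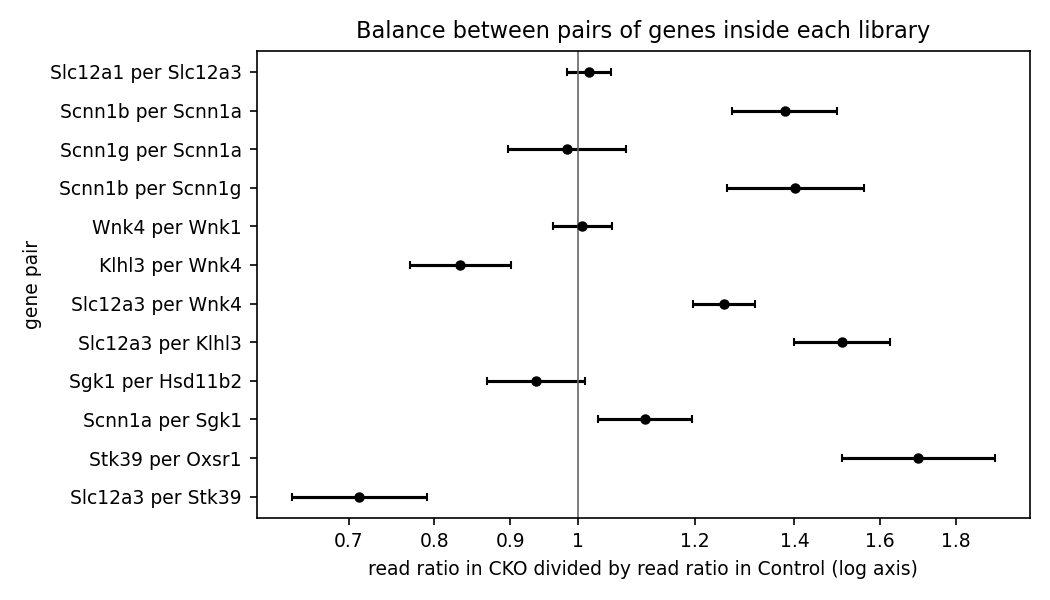
Change in the balance of gene pairs, as the read ratio of the pair in the CKO library divided by that in the control (log axis, 1 means the same balance), with approximate 95% counting intervals. Scnn1b gained on both other ENaC subunits and Slc12a3 gained on Wnk4 and Klhl3, while Slc12a1 per Slc12a3, Scnn1g per Scnn1a, Wnk4 per Wnk1 and Sgk1 per Hsd11b2 have intervals that hold 1.

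Of 12 other genes of the WNK cascade, none (0) was at least 2-fold higher or lower, and their median log2 ratio was -0.19. The counting interval lay above 1 for 2 and below 1 for 6 of them. Stk39, which encodes SPAK, had the largest log2 ratio, with 533 reads against 1301, a ratio of 1.73 (1.56 to 1.91). Oxsr1, which encodes the related kinase OSR1 and is named here after its values were seen, had 1664 reads against 2393, a ratio of 1.02 (0.955 to 1.08). The Stk39 per Oxsr1 read ratio therefore went from 0.320 to 0.544, a factor of 1.70 (1.51 to 1.91), and Slc12a3 per Stk39 differed by 0.712 (0.641 to 0.790). Cul3, the cullin that works with KLHL3, was 1.42-fold lower (1.37 to 1.48), and the KLHL3 relative Klhl2 1.30-fold lower (1.22 to 1.39). On the TPM scale, however, Cul3 stood at 61.7 against 60.1 and Klhl2 at 27.3 against 28.1. Wnk3 had 22 against 43 reads, with an interval of the ratio from 0.809 to 2.43 that holds 1. With total counts, 1 of the 12 was at least 2-fold higher and the median was 0.13, below the 0.32 of all expressed genes.

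In the corticosteroid arm both members were higher. Sgk1, on chromosome 10 at 21882184 to 21999903, had 1750 reads against 2952, or 58.1 CPM (55.4 to 60.9) against 69.3 CPM (66.8 to 71.9), a ratio of 1.19 (1.12 to 1.27). Hsd11b2, on chromosome 8 at 105518746 to 105523988, had 2606 reads against 4692, or 86.6 CPM (83.3 to 89.9) against 110 CPM (107 to 113), a ratio of 1.27 (1.21 to 1.34). The ratio intervals of both genes lay above 1, as did those of 36.8% of expressed genes. Sgk1 per Hsd11b2 differed by a factor of 0.937 (0.868 to 1.01), and Scnn1a per Sgk1 by 1.11 (1.03 to 1.19).

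Sgk1 is transcribed from several starts and is known for a fast response to corticosteroids and to cell stress. Of its 6 start windows in RefSeq, the fifth held the palindromic corticosteroid element, which was found in 3 of all 32851 windows (0.00913%). It is shown because it is the letter match that most sets a member apart from other start windows. The sequence is the 250 bases before that start, which lies inside the gene span, chr10:21993640-21993889 (GRCm38.p6), 5′ to 3′ on the plus strand. Capitals mark the palindromic element, which begins 189 bases before the start, and a separate half-site that begins 242 bases before it.
Sgk1: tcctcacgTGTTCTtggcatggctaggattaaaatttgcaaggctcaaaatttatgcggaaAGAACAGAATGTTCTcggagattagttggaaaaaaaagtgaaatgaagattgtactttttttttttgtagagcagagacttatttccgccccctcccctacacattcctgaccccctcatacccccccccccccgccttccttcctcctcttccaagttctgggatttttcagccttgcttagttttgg
Slc12a3, the only other member whose windows held one of the searched motifs, is shown beside it for the 250 bases at chr8:94328958-94329207, plus strand, where capitals mark a TATA box that begins 32 bases before the start listed for that window. That start lies 99 bases inside the gene span given above, so the TATA box lies inside the span as well.
Slc12a3: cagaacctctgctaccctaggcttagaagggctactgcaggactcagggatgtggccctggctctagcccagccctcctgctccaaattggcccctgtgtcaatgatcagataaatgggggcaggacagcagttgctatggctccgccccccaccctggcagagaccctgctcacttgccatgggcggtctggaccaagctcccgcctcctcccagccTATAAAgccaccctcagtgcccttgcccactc
Start windows were found for 8 of the 10 genes, without Scnn1a and Hsd11b2. Slc12a1, Wnk1, Wnk4 and Klhl3 held none of the searched letters. A match describes letters in the sequence and not binding, and the read counts do not tell the 6 starts of Sgk1 apart.

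Other genes that corticosteroids induce did not share one direction. Of 10 such genes, 2 passed 2-fold on the higher side and 0 on the lower side, and the median log2 ratio of 0.09 lay below the 0.25 of Sgk1. The clock gene Per1 was 2.59-fold higher (2.37 to 2.82) and the pyruvate dehydrogenase kinase gene Pdk4 2.54-fold higher (2.23 to 2.90). Fkbp5, a chaperone gene of the glucocorticoid receptor, was 2.0-fold lower (1.90 to 2.10) at a log2 ratio of -0.99, and Errfi1, an inhibitor of EGF receptor signalling and the most abundant of the list, 1.73-fold lower (1.69 to 1.77). Sgk1 also counts among fast-responding genes, and it lay far below most of those. Of 17 expressed immediate early genes, 12 passed 2-fold on the higher side and 15 had a log2 ratio above that of Sgk1, with a median of 1.56 over the list. Egr1 was 5.21-fold higher (4.67 to 5.81) and Junb 4.81-fold (4.31 to 5.39), both transcription factor genes. Immediate early genes also respond to tissue handling, and its part in these values was not tested.

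Among 16 corticosteroid receptor and SGK axis genes, none (0) was at least 2-fold higher or lower, with a median log2 ratio of 0.04. Nr3c2, the mineralocorticoid receptor gene, named here after its values were seen, had 371 reads against 629, a ratio of 1.20 (1.05 to 1.37). Cnksr3, a scaffold gene that aldosterone induces in ENaC-bearing cells, led on the higher side at 1.83-fold (1.63 to 2.06), on 388 against 1004 reads. Sgk2, a relative of Sgk1, was 1.38-fold lower (1.32 to 1.43), although it stood at 102 against 101 on the TPM scale. Nedd4, a ubiquitin ligase gene and the most abundant of these, was 1.27-fold higher (1.24 to 1.30). Nedd4l, on the same list and named here after its values were seen, had 3688 reads against 4472. Its ratio was 0.857 (0.821 to 0.896), but it stood at 23.0 against 27.5 on the TPM scale.

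Genes of proteases that cleave and open ENaC, listed together with genes of their inhibitors, went in both directions. Of 10 expressed genes of that list, 2 passed 2-fold on the higher side and 0 on the lower side, with a median log2 ratio of 0.25. Plau, the urokinase gene, had 4612 reads against 18147, a ratio of 2.78 (2.69 to 2.87), and St14, the matriptase gene, 970 against 3367, a ratio of 2.45 (2.28 to 2.64). Tmprss4 had 26 against 88 reads. Klk1, the tissue kallikrein gene and the most abundant of the list, was 1.48-fold lower (1.46 to 1.5). The inhibitor genes Spint1 and Spint2, named here after their values were seen, had ratios of 1.34 (1.27 to 1.41) and 1.32 (1.26 to 1.37). The summed injury and macrophage markers given above were higher in the same library, and their part in the protease values was not tested.

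Of 12 genes for basolateral exit of sodium and chloride, none (0) was at least 2-fold higher or lower, and the median was -0.02. The ion transport regulator gene Fxyd2 was 1.52-fold lower (1.51 to 1.54) and the potassium channel gene Kcnj16 1.48-fold lower (1.46 to 1.5). The proximal tubule expresses Fxyd2 and Kcnj16 as well. Fxyd4, a relative of Fxyd2 in the collecting duct, was 1.52-fold higher (1.29 to 1.80), and the potassium chloride cotransporter gene Slc12a4 2.02-fold higher (1.82 to 2.24) at a log2 ratio of 0.99. With total counts the log2 ratios of Fxyd2 and Kcnj16 stayed below 0 at -0.29 and -0.25, and the list median moved to 0.30.

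Compared per length on the authors' TPM scale, the order of the 10 levels was nearly the same in both libraries. In the control it ran from Slc12a1 at 208 TPM through Slc12a3 (124 TPM), Hsd11b2 (78.7 TPM), Wnk1 (62.8 TPM), Wnk4 (59.8 TPM), Scnn1a (48.8 TPM), Sgk1 (39.4 TPM), Scnn1b (23.3 TPM) and Scnn1g (17.3 TPM) to Klhl3 at 12.2 TPM. In the CKO library Slc12a1 stood at 348 TPM, Slc12a3 at 205 TPM and Hsd11b2 at 134 TPM, and Scnn1a at 86.2 TPM passed Wnk1 at 84.2 TPM and Wnk4 at 78.2 TPM. Sgk1 followed at 63.2 TPM, Scnn1b at 56.9 TPM, Scnn1g at 30.1 TPM and Klhl3 at 13.1 TPM. Carrying the counting intervals of the reads over to TPM, Scnn1a (84.0 to 88.4 TPM) and Wnk1 (82.9 to 85.6 TPM) overlapped in the CKO library. In the control, Wnk1 and Wnk4 came closest of all neighbours, with lower and upper bounds that round to the same 61.6 TPM.

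The scaling sets the sign of Wnk1 and Wnk4, while Klhl3 was lower with TMM and had a total-count interval that holds 1. Scnn1b had the highest and Klhl3 the lowest of the 10 ratios with TMM, total counts and TPM. With total counts the ratios of Scnn1b, Slc12a1 and Slc12a3 were 2.28 (2.12 to 2.44), 1.56 (1.53 to 1.59) and 1.53 (1.49 to 1.58), and the median of the 10 log2 ratios was 0.63 against 0.32 for all expressed genes. The median of the members stood 0.30 above that of all expressed genes with TMM, 0.31 above with total counts and 0.33 above with TPM.

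**Figure D4:**
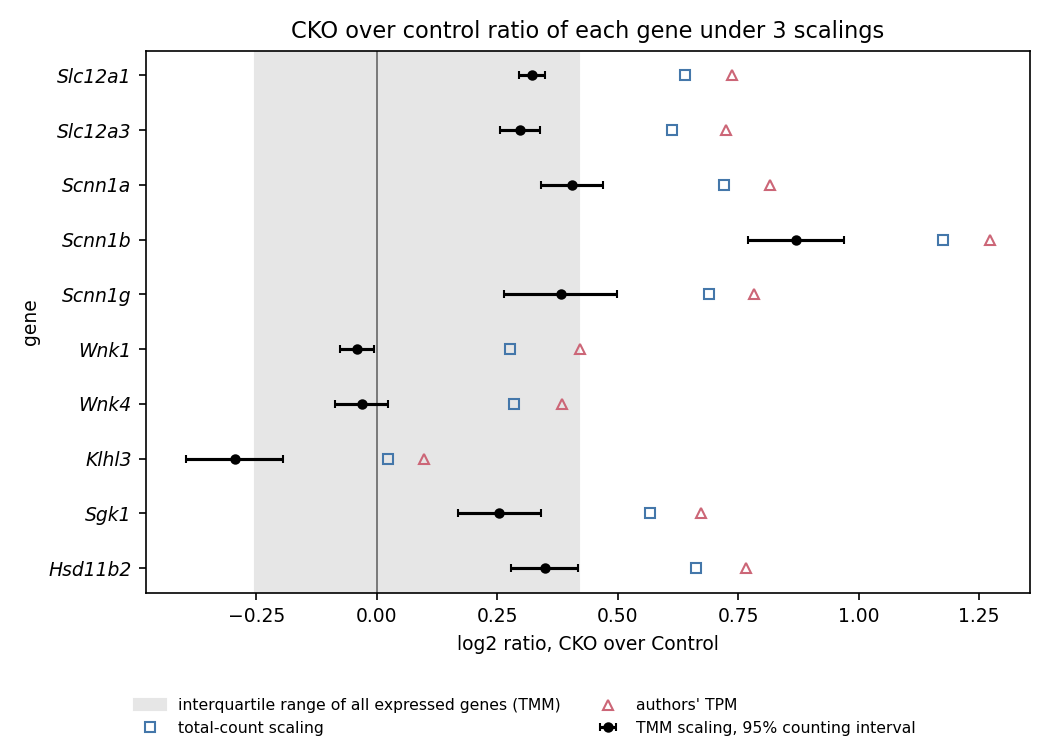
Log2 ratio, CKO over control, of each gene with TMM scaling (black, plain ratio with 95% counting interval), total-count scaling (blue squares) and the authors' TPM values (red triangles); the grey band is the interquartile range of all expressed genes with TMM. Scnn1b is highest and Klhl3 lowest under each of these 3 scalings, and all 10 genes lie above 0 with total counts and TPM.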

How the data were processed

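RNA-seq was done on whole kidneys of control and CKO mice, 1 library each, made with a stranded mRNA kit per the labels' protocols. The deposited table holds raw read counts per NCBI gene ID, per the file headers, and FPKM and TPM values that the authors scaled by gene length and depth. Tools listed in the submitters' processing notes, without roles, are edgeR, DESeq2, FastQC, HTSeq, Cufflinks 2.2.1 and STAR 2.7.3a, with mm10 as genome build.

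From the counts, TMM factors (edgeR 4.0.16, R 4.3.3) (control 0.896, CKO 1.12) gave CPM. Log2 ratios used CPM + 0.5, which understates ratios of genes with few reads, and genes with 1 CPM in either library were called expressed. Ratio intervals are exact, by the Clopper-Pearson method on the share of a gene's reads that fell in the CKO library. Intervals of within-library ratios come from the log odds ratio and are approximate. All intervals are at 95%. Other steps used Python 3.11.15, scipy 1.17.1, pandas 2.3.3 and numpy 2.4.6. Only the scaling, ratio and ratio interval steps were tested on simulated data. That simulation changed as many genes upward as downward, unlike these libraries, so it does not test the scaling under their imbalance. The alternatives tried were total counts, total counts after removing mitochondrial genes and the top 50 genes, DESeq2 1.42.0 size factors, TPM, FPKM, pseudocounts of 0.1 and 2 CPM, no minimum, a minimum of 10 CPM and a 1.5-fold limit.

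The members and 17 gene lists were chosen with earlier results of these data known. Named genes are Inmt, the 10 members, up to 4 genes of the largest absolute log2 ratio in each pathway list (3 in marker lists) and each list's gene of highest mean CPM. Coordinates are RefSeq's for GRCm38, the assembly that mm10 names. A second deposited table, of normalized values, was not used here. A gene of the basolateral list is not reported here.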

Additional observations from a re-analysis of the deposited data

How the results depend on the processing

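The values rest on 1 library per group, so neither animal variation nor batch can be told apart from the genotype. No paired analysis was possible because each group has 1 library. No member was at least 2-fold lower under any alternative run. The count at least 2-fold higher was 0 as reported and with DESeq2 size factors, either other pseudocount and either other minimum. It was 1 (Scnn1b) with TPM, FPKM, total counts, total counts after removing mitochondrial and top 50 genes, and the 1.5-fold limit. The median log2 ratio of the members moved from 0.31 to 0.63 with total counts, 0.50 after that removal, 0.73 with TPM and 0.62 with FPKM, and the median of all expressed genes moved along, to 0.32, 0.21, 0.40 and 0.28. Wnk1 turned from -0.04 to 0.28, 0.15, 0.42 and 0.31 under those 4 alternatives, and Klhl3 from -0.29 to 0.023 with total counts and 0.10 with TPM. Klhl3 stayed below 0 under the other 2, at -0.099 after that removal and -0.005 with FPKM. Counts in the lists moved too, with TMM, DESeq2 size factors, total counts, TPM and FPKM giving 0 to 2 thick ascending limb, 0 to 2 intercalated cell and 0 to 2 macula densa markers and 12 to 15 immediate early genes at least 2-fold higher, and 0 to 4 proximal tubule markers at least 2-fold lower. Ratios between genes inside a library use counts alone and do not move with the scaling.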

Other observations

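Electroneutral sodium chloride uptake in intercalated cells runs through the chloride exchanger pendrin and the sodium-dependent exchanger NDCBE, whose genes are Slc26a4 and Slc4a8. Slc4a8 had 155 control and 499 CKO reads, a ratio of 2.28 (1.90 to 2.74). Slc26a4 had 1513 against 2196 reads, a ratio of 1.03 (0.961 to 1.10) whose interval holds 1. Slc4a9, the basolateral partner AE4 of this route and the intercalated cell marker with the most reads, was 1.60-fold higher (1.51 to 1.69), and the water channel gene Aqp6 2.28-fold higher (2.06 to 2.52). Apical exchanger genes of other segments went in both directions. The chloride exchanger gene Slc26a6 had 147 against 296 reads, a ratio of 1.42 (1.16 to 1.75). The sodium proton exchanger gene Slc9a3 was 1.28-fold lower (1.24 to 1.32) and its relative Slc9a2 1.33-fold lower (1.24 to 1.42), but on the TPM scale Slc9a3 stood at 70.2 against 73.1 and Slc9a2 at 26.2 against 26.5. Slc12a2, which encodes NKCC1, a basolateral carrier in tubule cells, was 1.58-fold lower (1.47 to 1.69). Of the 7 genes on this list of other salt transport genes, which besides the apical exchangers and Slc12a2 holds the potassium channel gene Kcnj1, 1 was at least 2-fold higher, none (0) was at least 2-fold lower, and the median log2 ratio was -0.02. With total counts that median was 0.30. Slc26a4 is named here after its values were seen.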
